A study of Mus musculus with 4 samples.

Results

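Primary liver sinusoidal endothelial cells (LSECs) were profiled by RNA-seq, and the transcripts described here are 48 genes that mammalian cells use between the end of DNA replication and the completion of cell division, referred to as the mitosis and G2/M genes. Members were taken as the genes of the deposited table whose symbol was on a list of known mitotic regulators and structural proteins, a rule that uses no measured value, and all 48 were found among the 18373 genes of the table. That list was chosen with earlier results of these data known. The 4 libraries were 2 of cells given a control siRNA (NC) and 2 of cells given an siRNA against *Airn* (si*Airn*), a long non-coding RNA, and the comparison asks how these transcripts stood in cells labelled si*Airn*, meant to have less *Airn*, against NC. Every library was made from LSECs of BALB/c mice, and the methods give an age of 8 weeks and a purification with CD146 beads. Cells of both groups were cultured for 24 h and then transfected for 48 h, which the labels call day 3. No altered allele is named for either group, and the groups differ by label in the siRNA given. The labels number the libraries as biological replicates 1 and 2 of each group but do not say whether these came from separate mice, so p-values measure the spread between these libraries. The methods describe several siRNAs, and which of them each si*Airn* library received is not settled by the labels.

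Entry into mitosis is driven by cyclin B bound to CDK1, which is held inactive until CDC25 phosphatases remove its inhibitory phosphates, and exit follows when the anaphase-promoting complex with CDC20 marks securin and cyclin B for destruction. The genes of this programme are silent in resting cells, where the DREAM complex sits on their promoters through cell cycle homology region (CHR) elements, and they are switched on late in the cycle by the MuvB core together with MYBL2 and FOXM1, often beside CCAAT boxes bound by NF-Y. LSECs are largely quiescent in healthy adult liver and divide during regeneration, so that the transcripts of this programme are commonly read as a sign of cycling cells. In bulk RNA, a larger number of cycling cells and more RNA per cycling cell cannot be told apart.

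The libraries held between 17308382 and 18371959 estimated counts in total, and 13628 genes had enough counts to be tested with edgeR's quasi-likelihood test. *Airn* itself was read 7 and 3 times in the NC libraries, against 11 and 9 times where the label is si*Airn*. The ratio of si*Airn* to NC was 1.97, with a 95% interval for counting error of 0.878 to 4.7. These few counts therefore showed no fall of the target, and the interval, which covers counting error alone, did not reach below 0.878. The groups are named by their labels throughout. The defining markers of LSECs were present in every library: the summed level of 9 of 9 markers was 3683 and 3701 CPM (counts scaled to the size of the library) in NC against 2601 and 2355 CPM in si*Airn*. Of these 9 markers, 8 fell at an adjusted p under 0.05, where 8.56% of all genes tested were called lower and 8.27% higher, and the median log2 fold change of the 9 was -0.58. Of 9 stellate cell and fibroblast markers, 3 rose, namely *Reln*, *Col3a1* and *Acta2*, and their summed level was 1092 and 1290 CPM in NC against 1336 and 1744 CPM in si*Airn*. Among 9 tested macrophage markers 5 fell, with sums of 107.6 and 144.7 CPM in NC against 82.6 and 68.8 CPM in si*Airn*, and of 6 tested hepatocyte markers only *Apoa1* passed the test, with sums of 509.3, 659.6, 727.4 and 940.8 CPM in NC 1, NC 2, si*Airn* 1 and si*Airn* 2. Of 8 pan-endothelial markers 5 fell, among them *Cdh5* and *Eng*, with sums from 8601 to 8961 CPM in NC and from 5764 to 6533 CPM in si*Airn*. Lymphocyte markers summed to 3.09 to 5.09 CPM over the 4 libraries, neutrophil and monocyte markers to 3.79 to 6.42 CPM and cholangiocyte markers to 17.6 to 23.8 CPM. The lymphocyte gene *Cd3d* had at most 1 count in any library, and *Timd4* of the macrophage list at most 3. Without NC 2 no gene of the 13628 was called in either direction, and without NC 1 only 7 were called higher and 33 lower, with the lone library assumed to vary like the other group. The part of the marker shifts in the values that follow was not tested.

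All 48 members passed the filter on low counts, but most were low. The median level of a member was 2.44 FPKM, a level scaled to transcript length and library depth, against 10.2 FPKM over all genes tested, and 12 members lay under 1 FPKM. Estimated counts of members ran from 7 to 2063.66, and 27 members were under 100 counts in at least 1 library. *Bub3* was the highest at 56.8 FPKM, followed by *Pttg1* at 21.9 FPKM and then by *Smc4*, and *Cenpf*, a large kinetochore protein, was the lowest at 0.125 FPKM. Of the 47 neighbouring pairs in the order of levels, only 3 were separated by more than the range over the 4 libraries. The 48 members together gave 469.7 and 467.9 CPM in NC against 502.1 and 509.5 CPM in si*Airn*, so that the summed level was higher in both si*Airn* libraries. An exact permutation test of 2 libraries against 2 cannot give a two-sided p below 0.333, and no test was made on this sum.

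**Figure D1:**
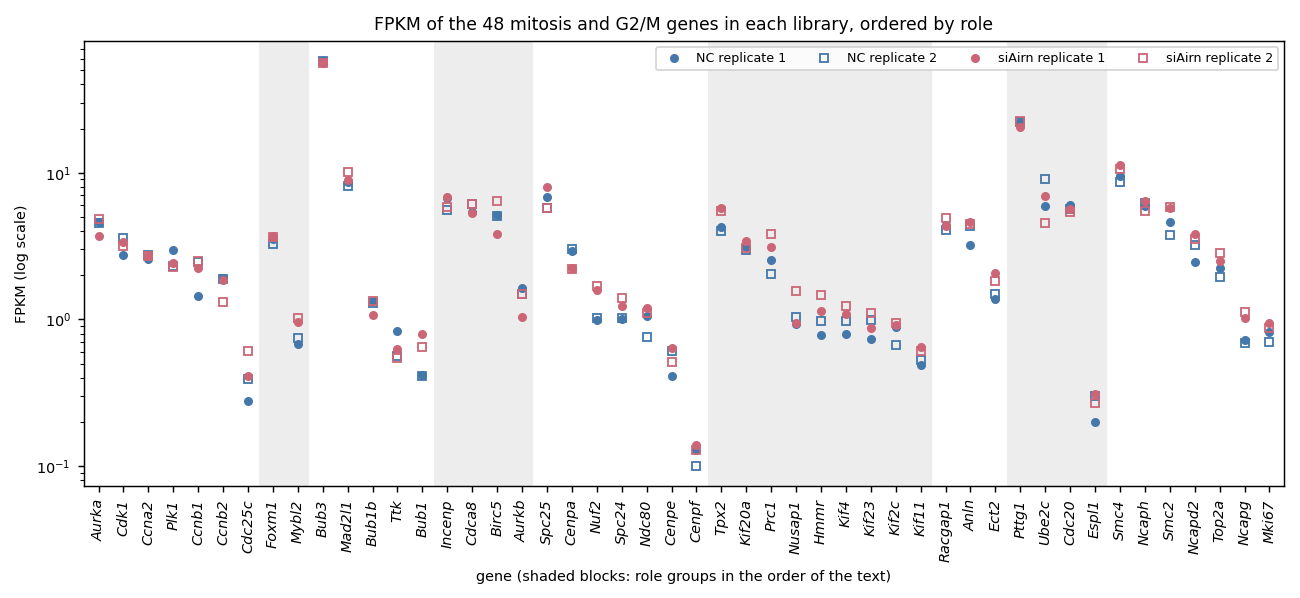
Level of each of the 48 mitosis and G2/M genes in each of the 4 libraries, in FPKM on a log scale, with genes ordered by role and, within a role, by level. Symbols mark the library, and *Bub3* at 56.8 FPKM and *Cenpf* at 0.125 FPKM are the ends of the range.

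Genes of this programme are known for shared promoter elements, so the letters of those elements were searched in the members. RefSeq promoter windows, 250 bases before to 50 bases after the start of the gene on GRCm38.p6, were available for 39 of the 48 members, 3 of which had more than 1 window. *Aurkb*, *Ccna2*, *Cdc25c*, *Foxm1*, *Incenp*, *Kif20a*, *Smc4*, *Spc24* and *Tpx2* were without one. Windows were searched on both strands for CCAAT, for the CHR letters TTTGAA or TTCGAA, and for E2F letters, which were TTCCCGC with the related forms TTGGCGC and further TTCGCGC and finally TTGCCGC. On the other strand CCAAT reads ATTGG and TTTGAA reads TTCAAA, and the TTGG of TTGGCGC can overlap ATTGG. A CHR match was found in 30 of the 39 members (76.9%, exact 95% interval 60.7% to 88.9%), against 16.6% of 10409 tested genes with a window and 21.7% of all 27025 genes with one. CCAAT was found in 29 members (74.4%), against 43.1% of tested genes and 41.1% of all genes, and both elements stood in 27 members (69.2%), against 8.23% of tested genes. E2F letters were found in 8 members (20.5%), close to the 19.1% of tested genes. The CHR share depends on the bases after the start: in the 250 bases before the start alone it was 41.0% in members and 14.9% in tested genes.

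The 120 bases before the start are printed for 6 members, in lower case and 5′ to 3′ on the strand of the gene, with letters of any searched motif in capitals. They were chosen to show the common arrangements, namely the master kinase *Cdk1* (gene 12534), its partner *Ccnb2*, the topoisomerase *Top2a*, the proliferation marker *Mki67*, the anaphase activator *Cdc20*, and the condensin subunit *Smc2* (gene 14211), which is described further on as the member past the test. On GRCm38.p6 the stretches are chr10:69352913-69353032 for *Cdk1*, chr9:70421555-70421674 for *Ccnb2*, chr11:99024190-99024309 for *Top2a*, chr7:135716380-135716499 for *Mki67* and chr4:118437344-118437463 for *Cdc20*, all on the minus strand, and chr4:52439101-52439220 on the plus strand for *Smc2*.
Cdk1: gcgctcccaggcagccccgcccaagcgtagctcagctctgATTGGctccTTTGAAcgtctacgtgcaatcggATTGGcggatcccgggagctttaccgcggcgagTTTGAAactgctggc
Ccnb2: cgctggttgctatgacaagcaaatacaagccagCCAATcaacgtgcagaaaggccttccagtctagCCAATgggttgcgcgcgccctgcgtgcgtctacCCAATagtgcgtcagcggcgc
Top2a: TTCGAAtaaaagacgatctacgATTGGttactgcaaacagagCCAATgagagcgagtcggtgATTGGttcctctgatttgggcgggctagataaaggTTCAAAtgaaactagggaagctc
Mki67: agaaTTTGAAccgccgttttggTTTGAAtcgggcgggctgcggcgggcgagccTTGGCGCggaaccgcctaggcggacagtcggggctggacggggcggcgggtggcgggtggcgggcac
Cdc20: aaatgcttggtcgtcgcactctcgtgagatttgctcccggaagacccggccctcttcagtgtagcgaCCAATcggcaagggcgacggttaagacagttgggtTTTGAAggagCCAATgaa
Smc2: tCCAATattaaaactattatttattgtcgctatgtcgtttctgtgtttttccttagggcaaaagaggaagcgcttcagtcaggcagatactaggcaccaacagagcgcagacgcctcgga

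*Cdk1* held CCAAT matches at -80 and -48 from the start with CHR matches at -71 and -15, the last close to the start as in *Cdc20*, where CHR stood at -18 between CCAAT matches at -53 and -8. *Ccnb2* held 3 CCAAT matches at -87, -54 and -21, and its CHR matches at -167 and 5 lie outside the printed bases. *Top2a* held 6 CCAAT and 4 CHR matches in its window. *Smc2* held 1 CCAAT match, at -119, and its CHR matches at -145 and 27 lie outside the printed bases, as do those of *Ccnb2*. *Mki67* held CHR matches at -116 and -98, and its CCAAT matches at -188, -166 and -141 lie outside the printed bases. A match is a description of the letters only, and no binding was measured here.

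With 2 libraries a group, the test found 1 member higher in si*Airn* at an adjusted p under 0.05, namely *Smc2*, and none lower, against 8.27% of all genes tested called higher and 8.56% called lower. The point estimates leaned upward: 34 of 48 log2 fold changes were above 0 and 14 below, the median was 0.20 against 0 for all genes tested, and the values ran from -0.47 for *Cenpa* to 0.75 for *Bub1*. The median was 0.09 to 0.11 on the FPKM scale in limma and 0.09 with an offset for GC content and transcript length. At an unadjusted p under 0.05, 10 members were higher and none lower, where 16.8% of all genes tested were higher and 17.2% lower. The 10 were *Bub1*, *Nuf2*, *Tpx2*, *Prc1*, *Anln*, *Ect2*, *Mki67*, *Smc2*, *Smc4* and *Ncapg*. The study's own threshold, a fold change over 1.4 with an unadjusted p under 0.05, was met by *Bub1*, *Nuf2*, *Prc1* and *Ncapg*, all higher, against 5.25% of all genes higher and 4.72% lower. In 23 members both si*Airn* libraries lay above both NC libraries and in 6 both lay below, against 30.9% and 31.9% of all genes tested.

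The single call held under some settings and not under others. *Smc2* kept it without si*Airn* 1, with upper-quartile normalization, with at least 10 counts in every library, under the likelihood-ratio test and with a replicate block. It lost it without NC 1 (log2 fold change 0.58, edgeR quasi-likelihood adjusted p = 0.0787), without NC 2 (0.29, adjusted p = 0.216) and without si*Airn* 2 (0.40, adjusted p = 0.0837). Under DESeq2 the estimate was again 0.43 with an adjusted p of 0.0787, it was 0.42 with no count filter (adjusted p = 0.0562), and under an offset for GC content and transcript length it was 0.21 (adjusted p = 0.267). DESeq2 called no member, higher or lower, where it called 825 of all genes higher and 894 lower. The edgeR likelihood-ratio test called 4 members higher, namely *Smc2*, *Tpx2*, *Prc1* and *Anln*, where it called 11.5% of all genes tested higher. For most members the libraries set wide limits: the 95% interval of the log2 fold change had a median half-width of 0.48, it stayed within -1 and 1 for 36 members, and within 1.4-fold either way for 13.

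**Figure D2:**
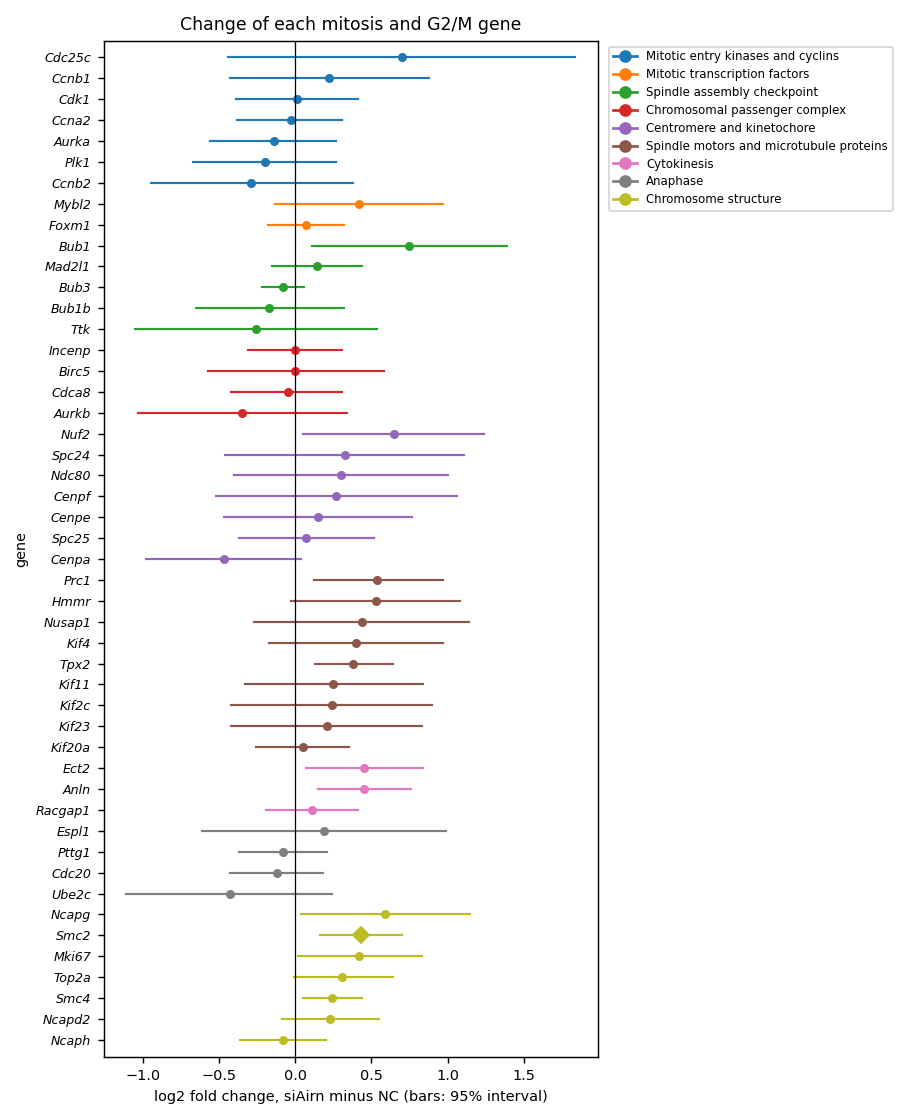
Log2 fold change of each member, si*Airn* minus NC, from the edgeR quasi-likelihood fit, with bars for the 95% interval and colours for the role. The diamond marks *Smc2*, the 1 member with an adjusted p under 0.05, and 10 of the 48 bars lie wholly above 0 while none lies wholly below.

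The 7 kinases, cyclins and phosphatase of mitotic entry had 3 estimates above 0 and 4 below, with a median of -0.03. None passed edgeR's quasi-likelihood test, 0 had an unadjusted p under 0.05, and DESeq2 called 0. *Cdk1*, the kinase that drives entry, had 130 and 180 estimated counts in NC against 163 and 153 in si*Airn*. The si*Airn* values lay inside the range of NC, and the log2 fold change was 0.01 ± 0.17 (SE) with a 95% interval from -0.39 to 0.41. *Ccnb1*, its cyclin, had 55 and 100 counts in NC against 87 and 96 in si*Airn*, again within the NC range. Its log2 fold change of 0.22 became -0.11 without NC 1 and 0.67 without NC 2, and 23.4% of its 50-base windows are shared with other annotated genes, among them *Ccnb1-ps*. *Aurka*, the centrosomal kinase and the highest of this group at 4.42 FPKM, had 142 and 149 counts in NC against 116 and 151 in si*Airn*. *Cdc25c*, the phosphatase that activates CDK1, had the largest estimate of the group, 0.70 ± 0.48, but rested on 7, 13, 14 and 19 counts in NC 1, NC 2, si*Airn* 1 and si*Airn* 2, and 12.7% of its exon bases lie under exons of *Gm3550* on the opposite strand. The interval of *Cdc25c* ran from -0.44 to 1.84. *Ccna2*, *Ccnb2* and *Plk1*, the polo-like kinase, had estimates from -0.29 to -0.03.

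Of the transcription factors that switch the programme on, *Foxm1* had 258 and 256 counts in NC against 278 and 271 in si*Airn*. The groups did not overlap, yet the log2 fold change was 0.07 with an interval from -0.18 to 0.32, among the narrowest of the members. *Mybl2*, which joins the MuvB core, had 42 and 50 counts in NC against 61 and 64 in si*Airn*. Its log2 fold change of 0.42 ± 0.23 had an adjusted p of 0.251 by edgeR's quasi-likelihood test, and 19.3% of its 50-base windows occur in other genes.

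The 5 spindle assembly checkpoint genes, which delay anaphase until every chromosome is attached, had a median of -0.08, with 2 above 0. *Bub1*, the checkpoint kinase at kinetochores, had 31 and 32 counts in NC against 60 and 48 in si*Airn*. Both si*Airn* libraries were above both NC libraries, the fold was 1.68, and the unadjusted p of 0.0275 did not pass after adjustment. *Bub3*, its binding partner, had 1943.4 and 2063.66 counts in NC against 1925.18 and 1925 in si*Airn*. Its interval, from -0.22 to 0.06, was the narrowest of all members, so that these data bound any change of *Bub3* to a small one while *Bub1* was estimated far less closely. *Mad2l1* had an estimate of 0.14, and *Bub1b* and *Ttk*, which encode BUBR1 and a checkpoint kinase, had -0.17 and -0.26.

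Genes of the chromosomal passenger complex, which corrects faulty attachments, were even: 2 estimates were at or just above 0 and 2 below, with a median of -0.02. *Aurkb*, its kinase, had 53 and 51 counts in NC against 34 and 49 in si*Airn*, with an estimate of -0.35 and an interval from -1.03 to 0.34. With 1 library left out the estimate of *Aurkb* ran from -0.65 to -0.09. *Incenp*, the scaffold of the complex and the highest of the group at 6.27 FPKM, had 356 and 313 counts in NC against 370 and 312 in si*Airn*, with an estimate of 0.00 and an interval from -0.31 to 0.31. *Birc5*, or survivin, and *Cdca8*, or borealin, stood at 0.00 and -0.05.

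In the centromere and kinetochore group 6 of 7 estimates were above 0 and the median was 0.27. With an offset for GC content and transcript length the median was 0.07, and *Cenpe* and *Cenpf* went from 0.15 and 0.27 to -0.13 and -0.05. *Nuf2*, a subunit of the NDC80 complex that grips microtubules, had 34 and 37 counts in NC against 55 and 58 in si*Airn*. Its groups did not overlap, with a log2 fold change of 0.65 ± 0.25 and an adjusted p of 0.122. The other subunits of that complex had estimates of 0.30 for *Ndc80*, 0.33 for *Spc24* and 0.07 for *Spc25*, the last with 156.97 and 137.99 counts in NC against 182.93 and 133 in si*Airn*, which overlap. *Cenpa*, the histone variant that marks centromeres, was lower in both si*Airn* libraries, with 66 and 73 counts in NC against 52 and 50 in si*Airn*. It had the lowest estimate of all members, -0.47, with an interval from -0.98 to 0.04.

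The 9 spindle motor and microtubule genes all had estimates above 0. Their median was 0.38, their summed level was 46.1 and 45.7 CPM in NC against 55.6 and 59.9 CPM in si*Airn*, and 7 of the 9 had both si*Airn* libraries above both NC libraries, as did 30.9% of all genes tested, while none passed the adjusted threshold. At an unadjusted p under 0.05 there were 2, *Tpx2* and *Prc1*. These were called by the likelihood-ratio test and with a replicate block, but not by DESeq2. *Tpx2*, which targets Aurora A to the spindle, had 217 and 220 counts in NC against 298 and 281 in si*Airn*. It was 1.30-fold higher with an interval of the log2 value from 0.13 to 0.64 and an adjusted p of 0.0531. *Prc1*, the bundler of the central spindle, had 129 and 109 counts in NC against 159 and 194 in si*Airn*. It was 1.46-fold higher with an adjusted p of 0.0824, and 11.1% of its exon bases lie under exons of *Rccd1* on the opposite strand. Leaving out si*Airn* 1 gave an estimate of 0.69 (adjusted p = 0.0345), against 0.71 without NC 1 (0.138), 0.39 without NC 2 (0.343) and 0.38 without si*Airn* 2 (0.28). The hyaluronan-binding spindle protein *Hmmr* stood at 0.53 and the kinesins between 0.05 for *Kif20a* and 0.40 for *Kif4*. With 1 library left out *Hmmr* ran from 0.32 to 0.70, *Kif20a* from -0.04 to 0.12 and *Kif4* from 0.21 to 0.61. *Kif20a* and *Kif23* did not separate the groups.

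Of the 3 cytokinesis genes, *Anln*, which organises the contractile ring, had 224 and 295 counts in NC against 362 and 358 in si*Airn*. It was 1.37-fold higher with an adjusted p of 0.0538 by edgeR's quasi-likelihood test. Its log2 fold change of 0.45 was 0.22 in limma on log2(FPKM + 1), 0.30 without NC 1 and 0.62 without NC 2. *Anln* was called higher by the likelihood-ratio test and with a replicate block, but not by DESeq2. *Ect2*, the exchange factor that activates RhoA, had 91 and 106 counts in NC against 147 and 127 in si*Airn*. It was also 1.37-fold higher, with an adjusted p of 0.101. *Racgap1*, the partner of *Ect2* and the highest of the 3 at 4.44 FPKM, had 215, 210, 219 and 246 counts in NC 1, NC 2, si*Airn* 1 and si*Airn* 2. The 3 estimates were above 0, but for *Racgap1* the groups overlapped once scaled to library size (12.6 and 11.6 CPM in NC against 12.1 and 13.9 in si*Airn*) and the interval ran from -0.19 to 0.41.

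The 4 anaphase genes had 3 estimates below 0 and a median of -0.10. *Ube2c*, the ubiquitin-conjugating enzyme of the anaphase-promoting complex, had 83 and 136 counts in NC against 99 and 65 in si*Airn*. The 2 values within each group were far apart, the interval ran from -1.11 to 0.24, and 22.8% of its exon bases lie under exons of *Tnnc2* on the opposite strand. *Pttg1*, or securin, had 232 and 247 counts in NC against 216 and 243 in si*Airn*, with an estimate of -0.08. *Cdc20* had 174 counts in each NC library and 167 and 158 in si*Airn*, an estimate of -0.12, and *Espl1*, or separase, stood at 0.19 on 22 to 36 counts.

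The 7 genes of chromosome structure had 6 estimates above 0, a median of 0.31 and a summed level of 113.9 and 107.5 CPM in NC against 134.0 and 132.0 CPM in si*Airn*. *Smc2*, an ATPase shared by both condensin complexes, had 430 and 372 counts in NC against 545 and 553 in si*Airn*. It was 1.35-fold higher, with a log2 fold change of 0.43 ± 0.11 and an adjusted p of 0.0443. *Smc4*, the other ATPase of condensin, had 651 and 629 counts in NC against 795 and 742 in si*Airn*, 1.18-fold higher with an adjusted p of 0.0887. It was called with a replicate block, but not with that block and the GC and length offset together. Of the condensin I subunits, *Ncapg* had 45.23 and 43.47 counts in NC against 64.44 and 70.95 in si*Airn*, with an estimate of 0.59 and an adjusted p of 0.125. *Ncapd2* stood at 0.23 and *Ncaph* at -0.08, with intervals that overlap that of *Ncapg*, and no difference between subunits was tested. For *Ncapg*, 13.4% of exon bases lie under exons of *Lcorl* on the opposite strand. *Mki67*, the proliferation marker, had 116 and 97 counts in NC against 151 and 140 in si*Airn*. Both si*Airn* values were higher, at 1.34-fold, and the adjusted p was 0.133. *Top2a*, which untangles sister chromatids, had 199 and 181 counts in NC against 226 and 253 in si*Airn*, at 1.24-fold with an adjusted p of 0.162.

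Whether the counting used strand is not given in the sources used here. On the GENCODE M21 annotation, 11 members have exon bases under exons of another gene on the opposite strand, and 11 share at least 5% of their 50-base windows with other genes, so that reads of these members could have been split or joined with others.

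The members' fold changes went with the composition of their transcripts. Across the 48 members, which share the same 4 libraries, Spearman's rho of the log2 fold change was -0.56 with GC content, 0.43 with transcript length and -0.43 with mean FPKM. The members' median GC content was 46.5%, against 49.7% over 12948 tested genes, and their median transcript length was 3671 bases, against 3431. With an offset for GC content and length fitted in each library, the members' median was 0.09 in place of 0.20 while that of all genes tested stayed at 0, no member was called, and rho with GC content was -0.27. In the same 12948 genes, 2367 were called without the offset and 1071 with it. The groups did not move alike: the median of the spindle motor and microtubule genes was 0.38 without and 0.29 with the offset, that of the cytokinesis genes 0.45 and 0.31, that of the chromosome structure genes 0.31 and 0.15, and that of the centromere and kinetochore genes 0.27 and 0.07. *Smc2* moved from 0.43 to 0.21, *Smc4* from 0.24 to 0.09 and *Mki67* from 0.42 to 0.15, whereas *Mybl2* moved from 0.42 to 0.51. The part of GC content and length in the unadjusted values was not tested beyond this fit.

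**Figure D3:**
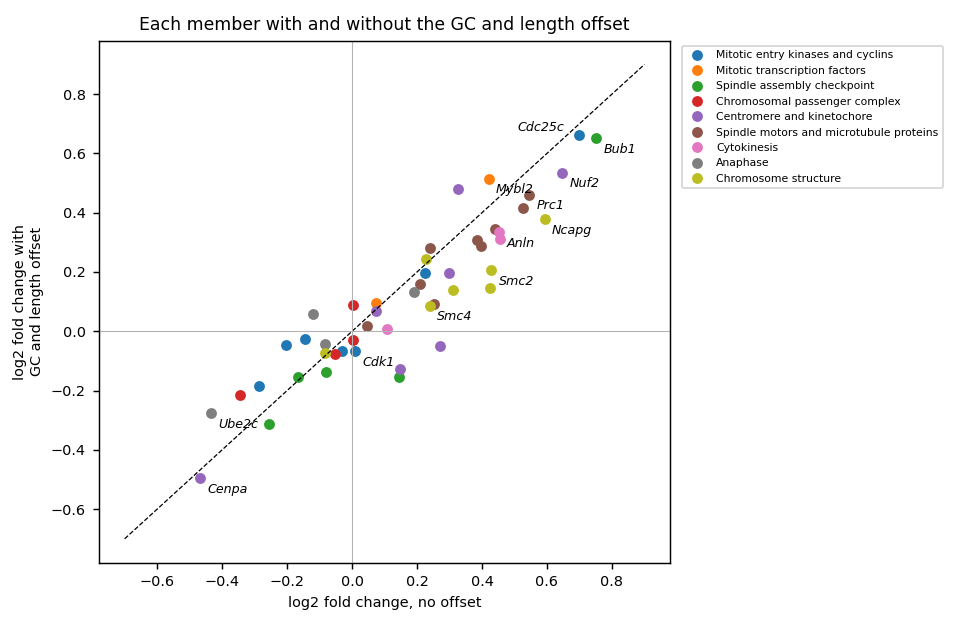
Log2 fold change of each member with no offset (x axis) and with the offset for GC content and transcript length (y axis), coloured by role, with a dashed line of equality. Most members above 0 on the x axis lie under the line, and the median is 0.20 on the x axis and 0.09 on the y axis.

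Members with and without the promoter letters had overlapping fold changes. The median log2 fold change was 0.22 in the 30 members with a CHR match and 0.15 in the 9 without, 0.19 in the 29 with CCAAT and 0.27 in the 10 without, and 0.33 in the 8 with E2F letters and 0.15 in the 31 without. Over all tested genes with a window the corresponding medians lay between 0.00 and 0.02. These are descriptions of lists, with no test of the difference.

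The other genes of the cell cycle were set beside the members in the same fit. Of 65 tested further mitosis genes that cycle with division, 5 rose and none fell in edgeR's quasi-likelihood test, 9 were higher and 1 lower at an unadjusted p under 0.05, and the median was 0.25 with 53 estimates above 0. The shares higher, 7.69% and 13.8%, were no larger than the 8.27% and 16.8% over all genes tested. The shares lower were 0% and 1.54%, against 8.56% and 17.2% of all genes tested, with no test of the list. The 5 were *Ncapg2*, a condensin II subunit, at 0.84 (8.53 and 8.85 CPM in NC against 15.8 and 15.2 in si*Airn*), *Trip13*, which remodels MAD2, at 0.51, the nuclear lamin *Lmnb1* at 0.37, the spindle protein *Ckap2* at 0.37 and the kinetochore protein *Zwint* at 0.29. Among 16 genes of the anaphase-promoting complex, many of which are not periodic, *Cdc27* rose by 0.46 and *Anapc5* and *Ube2s* fell by 0.23 each, with a list median of -0.14. These are 6.25% of the list higher and 12.5% lower, against 8.27% and 8.56% of all genes tested. Among 13 genes of the DREAM, MuvB and RB family, *Tfdp1* rose by 0.35 and the repressive *E2f4* fell by 0.32, 7.69% of the list in each direction.

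Upstream of mitosis, larger shares of the G1 and S phase lists were called, with no test of the lists. The median log2 fold changes were not larger to match, at 0.22 for the G1 list and 0.16 for the S phase list against 0.20 for the members. The lists also differed in level, with medians of 13.6 and 8.12 FPKM against 2.44 FPKM for the members. The part of level and precision in the shares called was not tested. Of 12 G1 cyclins, kinases and activator E2Fs, 3 rose (25%) and 2 fell (16.7%), against 8.27% and 8.56% of all genes tested. *Ccne2*, a cyclin of the G1/S transition, had 2.86 and 3.37 CPM in NC against 9.96 and 7.64 CPM in si*Airn*. It was 2.82-fold higher with an adjusted p of 0.0092, the largest change in these lists. *Ccnd2* rose by 0.46 and *Cdk6* by 0.43 on the log2 scale, while *Ccnd3* fell by 0.32 and *Cdk4* by 0.25, and *Ccnd1* had an estimate of 0.34 with an adjusted p of 0.175. Of 32 S phase genes 9 rose and none fell, with a median of 0.16, a share higher of 28.1% against the same 8.27%. At an unadjusted p under 0.05 the counts were 13 (40.6%) and 1, against 16.8% and 17.2% of all genes tested. They included all 6 subunits of the MCM2-7 replicative helicase, from 0.27 for *Mcm3* to 0.60 for *Mcm4*, the helicase loader *Cdc6* at 0.79, and *Rrm2*, a subunit of ribonucleotide reductase, at 0.42. *Pcna*, the polymerase clamp, was not among them, with 135.7 and 142.6 CPM in NC against 147.9 and 151.3 CPM in si*Airn* and an estimate of 0.10. Of 7 CDK inhibitors only *Cdkn1c* passed the test, falling by 0.51 (14.3% of the list, against 8.56% of all genes called lower). The list median was -0.32, and 5 of the 7 had both si*Airn* libraries below both NC libraries, as did 31.9% of all genes tested. In 1 of the 7 both lay above. At an unadjusted p under 0.05 in edgeR's quasi-likelihood test, 2 of the list were lower and 1 higher. *Cdkn2a*, named after its values were seen, stood at -0.58 (unadjusted p = 0.0398, adjusted p = 0.127). *Cdkn1b*, also named afterwards, went the other way, at 0.24 (unadjusted p = 0.0156, adjusted p = 0.0708). With an offset for GC content and transcript length the list median was -0.17 and *Cdkn1c* stood at -0.31. In the same list *Cdkn1a*, or p21, had an estimate of 0.02 with an interval from -0.12 to 0.15. Of 9 cohesin and partner genes *Stag2*, *Wapl*, *Pds5a* and *Pds5b* rose, 44.4% of the list against 8.27% of all genes tested. However, the median of that list went from 0.18 to -0.01 with the GC and length offset and none of the 4 was then called. With the same offset, 7 of the 32 S phase genes (21.9%), 3 of the 12 G1 genes and 2 of the 65 further mitosis genes (3.08%) were called higher, against 2.87% of all 12948 genes, and 5.41% of all genes were called lower. The calls lost with it included *Trip13*, *Ckap2* and *Zwint* among the mitosis genes, *Cdc27* and *Anapc5* of the anaphase-promoting complex, *E2f4*, *Cdk6*, *Ccnd3*, *Cdk4*, *Cdkn1c* and *Rrm2*, and for these the adjusted p ran from 0.053 to 0.35. Some of their estimates stayed close to those without the offset, such as 0.43 for *Rrm2*, 0.45 for *Trip13*, 0.32 for *Ckap2* and 0.24 for *Zwint*, whereas *Cdk6* stood at 0.12 and *Cdk4* at -0.11. The 6 MCM subunits, *Cdc6*, *Ccne2*, *Ccnd2*, *Ncapg2*, *Lmnb1*, *Tfdp1* and *Ube2s* were still called, with *Ccnd2* at 0.27 in place of 0.46. Without NC 1, or without NC 2, none of the genes of these 7 lists was called.

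**Figure D4:**
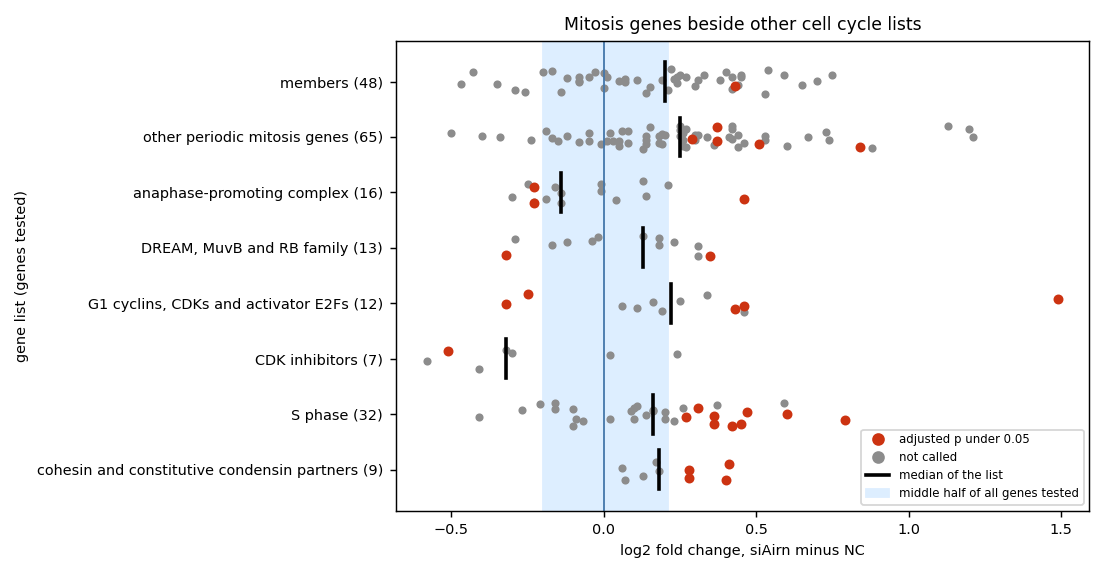
Log2 fold change, si*Airn* minus NC, of the members and of 7 other cell cycle lists, with 1 point per tested gene, red where the adjusted p was under 0.05, and a bar at the median of each list. The shaded band spans the middle of all genes tested, from -0.20 to 0.21. The S phase list holds 9 red points where the members hold 1, while the medians of these 2 lists are 0.16 and 0.20.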

How the data were processed

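RNA-seq of LSECs gave 4 libraries, 2 NC and 2 si*Airn*, grouped by their labels and sequenced as single reads of 50 bases. The authors deposited estimated counts per gene, not normalized, and values that behave as FPKM, though the header does not name that unit. The submitters' processing notes name BWA, Bowtie2, RSEM and the build hg19, a human build, without roles. Which build these mouse reads were aligned to is not settled by the notes, and the use of strand is not given in the sources used here. Means of each group deposited by the authors were not used.

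Counts were rounded to whole numbers and fitted in edgeR 4.0.16 (R 4.3.3; TMM, factors 0.985 to 1.02, filterByExpr, quasi-likelihood test, no covariate, common biological coefficient of variation 0.0754), with Benjamini-Hochberg adjustment over 13628 genes and calls at an adjusted p under 0.05. The procedure was tested on simulated data. Counts were compared as CPM within genes, FPKM between genes. Members, lists, roles and motifs were chosen with earlier results of these data known. Members named with all values were *Mki67*, *Top2a*, *Cdk1*, *Ccnb1*, *Foxm1* and, in each role, those with the largest change and the highest FPKM. *Smc2*, *Cenpa*, *Ect2* and *Cdc20* were added after their values were seen. Alternatives covered DESeq2 1.42.0, limma 3.58.1 on log2(FPKM + 1) and log2(FPKM + 0.1), filters, a replicate block, a GC and length offset (splines with 5 degrees of freedom each), and each library left out. GC content and length came from GENCODE M21 transcripts. Replicate numbers were not taken to pair libraries. Values of some single genes are not reported here.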

Additional observations from a re-analysis of the deposited data

How the results depend on the processing

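Limits lie in depth and in the 2 libraries per group: 27 members had under 100 counts in some library, and the half-width of the 95% interval of a log2 fold change ran from 0.14 to 1.14, with a median of 0.48. Of the 48 members, 31 kept their sign in all 15 alternatives that gave a value and 17 changed it in at least 1; 6 were called in at least 1 alternative. The number of members called higher, 1 as reported, was 0 under DESeq2, with no count filter, under each limma setting on FPKM, under the GC and length offset and at an adjusted p under 0.01. It was 4 under the edgeR likelihood-ratio test and under the study's threshold, 5 at an adjusted p under 0.1, and 3 in the 12948 genes of the offset fitted without it, an alternative added after seeing the data. Leaving out 1 library gave 0 to 2, with 0 without NC 1, NC 2 or si*Airn* 2. The members' median log2 fold change was 0.09 with log2(FPKM + 1), 0.10 with no FPKM filter, 0.11 with log2(FPKM + 0.1), 0.09 with the offset, and 0.15 to 0.21 with 1 library left out.

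Over all genes tested, 1127 higher and 1167 lower became 1565 and 1575 under the likelihood-ratio test, 825 and 894 under DESeq2, 371 and 700 with the offset, 715 and 643 at the study's threshold, 1845 and 1880 at an adjusted p under 0.1, 141 and 202 at 0.01, and 0 and 0 by limma with no filter. With 1 library left out the higher calls ran from 0 to 1196 and the lower from 0 to 1214, with 0 of each without NC 2, where the lone library is assumed to vary like the other group. In the other cell cycle lists, 23 higher and 6 lower became 14 higher under DESeq2, 13 and 2 with the offset, 7 and 2 at the study's threshold, 3 and 0 at 0.01, 0 and 0 by limma with no filter, and 3 lower in both filtered limma settings. Leaving out 1 library gave 0 to 18 higher and 0 to 6 lower. Their median of 0.17 was 0.12 with the offset, 0.14 in limma with log2(FPKM + 1), filtered or not, and 0.14 to 0.17 with 1 library left out. *Pds5a*, called higher without the offset, stood at -0.01 with it (edgeR quasi-likelihood adjusted p = 0.927), so that no direction was established. The share of member promoters with CHR letters was 41.0%, and with both CCAAT and CHR letters 38.5%, in the bases before the start alone. The causes of these shifts were not tested.

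The replicate numbers correlated at 0.27 over genes, but with only 2 numbers and no label that ties them to a shared mouse or day they were not used as a pairing. With the replicate block, 2405 genes were higher and 2436 lower over all genes, 5 members were higher (*Smc2*, *Smc4*, *Tpx2*, *Prc1* and *Anln*), and 40 genes of the other lists were higher and 13 lower. The replicate block with the offset gave 1860 higher and 2362 lower, 3 members higher (*Tpx2*, *Prc1* and *Anln*, with *Smc2* at an adjusted p of 0.0641) and 1 lower (*Bub3*, at -0.14), 31 genes of the other lists higher and 15 lower, medians of 0.09 for the members and 0.12 for the other lists, and -0.01 for *Pds5a*.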
